A study of Mus musculus with 18 samples.

Results

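The regions described here are those of the Mettl3 knockout line KO2 that carry acetylated lysine 27 of histone H3 (H3K27ac), trimethylated lysine 4 of histone H3 (H3K4me3), or both. A region of a mark was a run of peaks that overlapped by at least 1 bp and held a peak of each of the mark's 2 libraries, and overlapping regions of the marks were joined. KO2 had 42841 H3K27ac regions and 45629 H3K4me3 regions, which joined into 52806 of the 151803 joined regions of the 3 genotypes. The series mapped both marks by chromatin immunoprecipitation and sequencing in mouse embryonic stem cells of the C57BL/6 strain. The genotypes are Mettl3 Control, KO1 and KO2, and Mettl3 is the methyltransferase that places N6-methyladenosine (m6A) on RNA. All groups grew in serum with LIF, the GSK3 inhibitor CHIR99021 and the MEK inhibitor PD0325901. Each of the 6 groups of genotype and mark had 2 libraries, each with its own peak list. The other 6 of the 18 samples are inputs and were not analysed here. The sources used here do not say how the knockout lines were derived, or whether a pair of replicates stems from separate cultures. The p-values therefore reflect library-to-library spread, which may be technical. In KO2 the lists held 65398 and 61383 H3K27ac peaks and 72303 and 66483 H3K4me3 peaks. Read depth is unknown for these lists.

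H3K4me3 is laid down at gene starts, above all at starts rich in CpG dinucleotides, by methyltransferase complexes of the SET1 and MLL families. H3K27ac is written by the acetyltransferases p300 and CBP at active promoters and at active enhancers, which lie away from gene starts. Acetylation and Polycomb methylation of the same lysine exclude each other on one histone tail. In embryonic stem cells many developmental genes are known to be bivalent, with H3K4me3 and Polycomb's H3K27me3 and without H3K27ac. H3K27me3 was not measured here.

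The sequence at gene starts differed between the classes. Each class is shown by the 250 bases before the start of the genes with the highest coverage of the class's mark, from RefSeq (GRCm38.p6, the assembly of mm10), 5′ to 3′, with CpG in capitals. Pcbp1 (chr6:86526190-86526439, minus strand), an RNA-binding protein gene, and Phc1 (chr6:122340228-122340477, minus strand), a Polycomb subunit gene, had both marks over their whole start windows:
Pcbp1: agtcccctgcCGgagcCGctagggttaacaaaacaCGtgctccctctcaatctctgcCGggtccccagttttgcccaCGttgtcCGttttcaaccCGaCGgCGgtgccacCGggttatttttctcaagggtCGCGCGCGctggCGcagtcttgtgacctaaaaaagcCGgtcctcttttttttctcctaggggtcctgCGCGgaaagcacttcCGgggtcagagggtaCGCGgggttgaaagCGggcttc
Phc1: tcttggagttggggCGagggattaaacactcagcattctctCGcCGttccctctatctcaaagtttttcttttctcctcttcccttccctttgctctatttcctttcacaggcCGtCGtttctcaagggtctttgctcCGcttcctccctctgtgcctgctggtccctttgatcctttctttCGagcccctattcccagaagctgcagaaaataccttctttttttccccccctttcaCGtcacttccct
Among genes with H3K4me3 and no H3K27ac peak, the widest coverage was at the predicted gene Gm36712 (chr16:91651518-91651767, plus strand) and at Luc7l2 (chr6:38555473-38555722, plus strand), a splicing factor gene. Hoxa5 (chr6:52204588-52204837, minus strand), a Hox transcription factor gene of the same class, was added after its values were seen, as a CpG-rich developmental example:
Gm36712: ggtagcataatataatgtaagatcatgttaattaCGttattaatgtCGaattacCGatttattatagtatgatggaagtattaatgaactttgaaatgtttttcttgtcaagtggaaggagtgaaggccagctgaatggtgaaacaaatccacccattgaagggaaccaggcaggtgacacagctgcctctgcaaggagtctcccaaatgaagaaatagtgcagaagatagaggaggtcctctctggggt
Luc7l2: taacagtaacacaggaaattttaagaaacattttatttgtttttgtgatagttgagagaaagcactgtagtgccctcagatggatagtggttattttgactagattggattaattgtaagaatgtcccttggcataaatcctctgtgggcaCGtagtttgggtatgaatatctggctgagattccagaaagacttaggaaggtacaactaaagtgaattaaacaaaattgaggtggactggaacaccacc
Hoxa5: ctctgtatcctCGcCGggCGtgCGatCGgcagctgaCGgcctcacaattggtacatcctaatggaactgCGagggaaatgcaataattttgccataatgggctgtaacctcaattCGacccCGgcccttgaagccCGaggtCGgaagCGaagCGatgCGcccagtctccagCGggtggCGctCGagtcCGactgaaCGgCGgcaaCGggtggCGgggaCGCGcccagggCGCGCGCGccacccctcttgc
Klk11 (chr7:43774367-43774616, plus strand), a serine protease gene, and Wfikkn1 (chr17:25880859-25881108, minus strand), which encodes a secreted binding protein of growth factors, had H3K27ac and no H3K4me3 peak:
Klk11: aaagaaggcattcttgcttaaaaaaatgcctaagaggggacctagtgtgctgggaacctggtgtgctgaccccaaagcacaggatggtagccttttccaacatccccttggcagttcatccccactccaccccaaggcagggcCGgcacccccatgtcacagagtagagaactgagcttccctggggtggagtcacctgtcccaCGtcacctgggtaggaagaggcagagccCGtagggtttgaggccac
Wfikkn1: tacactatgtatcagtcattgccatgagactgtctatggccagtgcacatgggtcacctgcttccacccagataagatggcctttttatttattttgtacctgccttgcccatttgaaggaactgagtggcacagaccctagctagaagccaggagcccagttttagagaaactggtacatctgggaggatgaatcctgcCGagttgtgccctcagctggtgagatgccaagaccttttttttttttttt

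These stretches held 22 CpG at Pcbp1, 8 at Phc1, 28 at Hoxa5, 3 at Gm36712, 1 at Luc7l2, 3 at Klk11 and 1 at Wfikkn1. Over whole classes, with the 300 bases from 250 before to 50 after the start, the median was 7.67 CpG per 100 bases at the 8408 starts with both marks and 6.00 at the 2201 with H3K4me3 only. It was 1.33 at the 33 starts with H3K27ac only, 1.00 at the 6850 with neither, and 2.33 over all 32851 entries of the table. Gm36712 and Luc7l2 were thus poorer in CpG than most starts of their class, whose lower quartile was 3.67 per 100 bases. The table holds 1 start for each of them and may lack others, so their class rests on that start. The motif GGGCGG, looked for on both strands, was in 69.4% of starts with both marks, 65.4% with H3K4me3 only, 21.2% with H3K27ac only, 13.6% with neither and 35.7% of all entries. The motif TATAAA ran the other way, at 5.85%, 8.04%, 18.2%, 23.7% and 13.6% in the same order. CCAAT was in 39.2% of starts with both marks and 37.4% of all entries, CACGTG in 11.04% against 7.15%, and TGACTCA in 2.72% against 5.20%. The motifs do not overlap one another in sequence, and a match describes letters and no bound factor.

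Of the 52806 joined regions of KO2, 28942 (54.8%) had both marks, 9467 (17.9%) H3K27ac only and 14397 (27.3%) H3K4me3 only. Most H3K27ac regions (33374, 77.9%) met an H3K4me3 region, and 31232 H3K4me3 regions (68.4%) met an H3K27ac region. In bases, 77.4% of H3K27ac region length lay inside H3K4me3 regions, and 60.8% of H3K4me3 region length inside H3K27ac regions. The shares were alike on every autosome and on X, with 52.8% to 56.5% of regions carrying both marks. The class of a region depends on both libraries of a mark: 5211 of the H3K27ac only regions met an H3K4me3 peak that was part of no shared region, and 4256 met none. Of the H3K4me3 only regions, 4586 met such an H3K27ac peak and 9811 met none. A list standing alone, without the other replicate, gave 19861 or 23430 H3K27ac only regions (without H3K27ac replicate 1 or 2), and 27255 or 32770 H3K4me3 only regions (without H3K4me3 replicate 1 or 2), and H3K27ac only regions fell to 5602 without H3K4me3 replicate 2. Few overlaps were marginal, since 79 of the 33374 were shorter than 50 bp. Many regions of 1 mark lay close to the other: 4123 H3K27ac only regions (43.6%) were within 1000 bp of an H3K4me3 region, and 3445 H3K4me3 only regions (23.9%) within 1000 bp of an H3K27ac region.

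Regions with both marks were wider and had higher folds than regions with 1 mark. Their median width was 1095 bp, against 413 bp for H3K27ac only and 481 bp for H3K4me3 only. Joining by itself widens a region with both marks. A region's fold is the highest among its peaks in a library, and a wider region can hold more of them. Under 300 bp, 7.97% of 5156 regions had both marks, 40.8% H3K27ac only and 51.3% H3K4me3 only. At 4000 bp and above, 98.1% of 1345 regions had both marks, none had H3K27ac only and 1.86% had H3K4me3 only. The authors' fold enrichment for H3K27ac had a median of 7.98 and 7.95 in the 2 libraries in regions with both marks, against 4.996 and 4.85 with H3K27ac only. For H3K4me3 it was 10.7 and 9.94 with both marks, against 5.89 and 5.88 with H3K4me3 only.

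**Figure D1:**
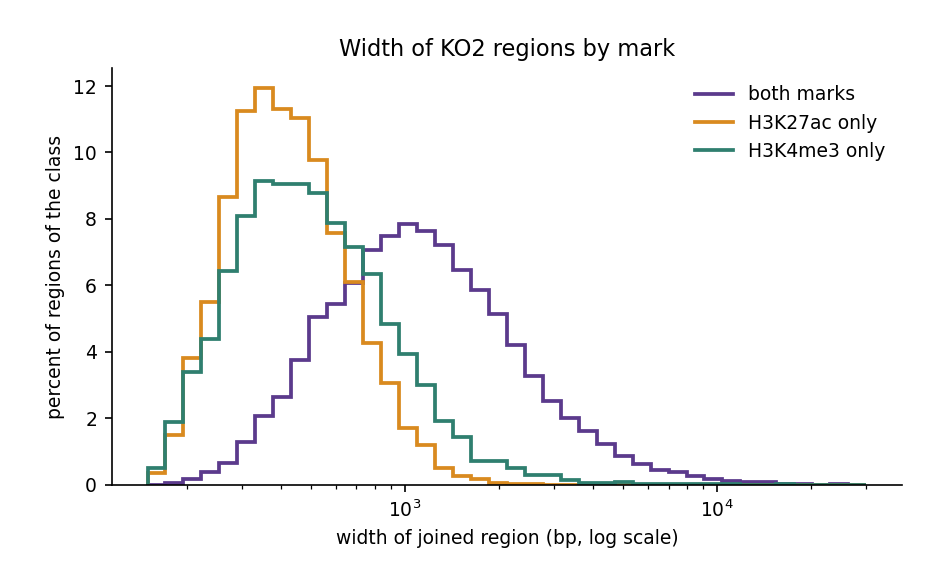
Width of the joined regions of KO2 in bp on a log scale, as the percent of each class's regions per bin. The curve of regions with both marks peaks near 1000 bp, and those of H3K27ac only and H3K4me3 only near 400 bp.

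The classes lay in different places. Of regions within 1 kb of the start of a protein-coding gene, 73.3% had both marks, 24.99% H3K4me3 only and 1.74% H3K27ac only (14263 regions). Of the 13792 intergenic regions, 52.7% had both marks, 31.8% H3K27ac only and 15.5% H3K4me3 only. Of the 20229 regions inside coding genes, away from such starts, 40.9% had both, 22.4% H3K27ac only and 36.7% H3K4me3 only. Read by class, 2.62% of H3K27ac only regions, 24.8% of H3K4me3 only regions and 36.1% of regions with both marks were at a coding start, and the median distance to one was 31.0, 9.36 and 10.0 kb. The start table lacks 4395 of 21887 coding genes and may lack alternative starts. Regions within 1 kb of either end of such a gene, or of the start of a noncoding gene, were set apart (4522 regions, 65.4% with both marks). Some regions called inside a gene may still lie at starts that the table does not list. The loss is not evenly spread: a planned list of 19 clustered protocadherin genes had no start in the table and is not described.

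Within regions that carried both marks, the mark that reached farther changed with place. At coding starts the median length was 803 bp for H3K27ac and 1242 bp for H3K4me3, and H3K27ac was the wider in 12.3% of 10451 regions. In intergenic regions it was 843 bp for H3K27ac and 694 bp for H3K4me3, with H3K27ac the wider in 70.6% of 7265. Enrichment for H3K27ac differed less between these places (medians 9.65 and 9.91 at starts, 7.47 and 7.41 in intergenic regions) than that for H3K4me3 (18.3 and 17.6 at starts, 7.48 and 7.10 in intergenic regions).

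**Figure D2:**
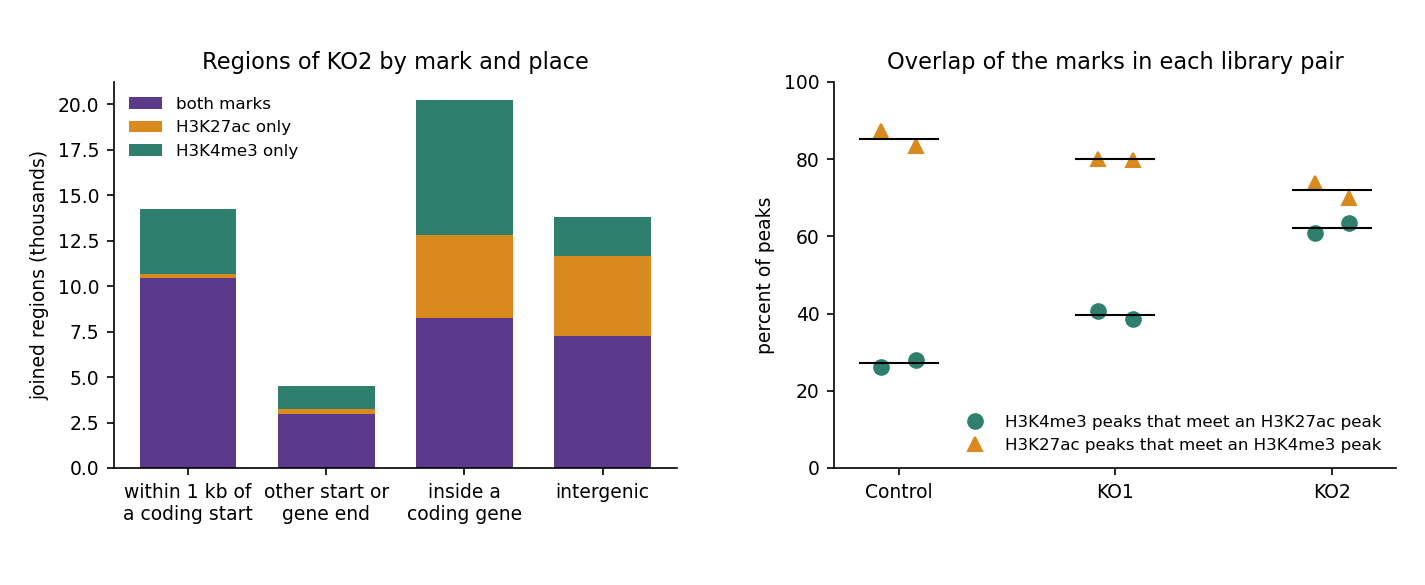
Left, number of joined regions of KO2 with each mark by place, on an axis in units of 1000. The bar of other starts or gene ends holds starts of noncoding genes and either end of coding genes without a listed start. Right, percent of H3K4me3 peaks that met an H3K27ac peak (circles) and of H3K27ac peaks that met an H3K4me3 peak (triangles) in each pair of libraries, with bars at the mean of 2. H3K27ac only regions are few at coding starts, and the circles are higher in KO2 (60.7% and 63.4%) than in Control (26.2% and 27.9%).

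The widest region with both marks, 25374 bp, lay inside Esrrb (chr12:86466507-86491880), which encodes a nuclear receptor of the naive pluripotency network. H3K27ac covered 23235 bp of it and H3K4me3 25350 bp, with H3K27ac folds of 16.2 and 12.4 and H3K4me3 folds of 36.5 and 35.1. The gene body held 10 regions with both marks, 4 with H3K27ac only and 2 with H3K4me3 only. The next widest were at Cnn3 (chr3:121426458-121446472, 20015 bp), a calponin gene, with H3K27ac over 9438 bp and H3K4me3 over the whole, and at Ctbp2 (chr7:133106667-133125610, 18944 bp), a corepressor gene. By the authors' folds the strongest regions with both marks included an 846-bp region at U2af1l4 and Psenen (H3K27ac 28.8 and 37.2, H3K4me3 39.2 and 49.3) and a 13311-bp region at Dido1 (H3K27ac 26.04 and 30.9, H3K4me3 41.1 and 47.9).

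The widest H3K27ac only regions were far shorter: 2673 bp inside Kat7 (chr11:95273192-95275864), a histone acetyltransferase gene, 2444 bp inside Sparc (chr11:55404208-55406651), a matrix protein gene, and 2252 bp inside Manba (chr3:135564647-135566898). Each of these met H3K4me3 peaks in both libraries that did not overlap one another, with folds of 4.52 to 6.91. By fold, the strongest H3K27ac only regions were intergenic and short, at 351 bp near Wdr82 (chr9:106168186-106168536, 9.34 and 9.64), 585 bp on chromosome 11 (chr11:42108985-42109569, 9.42 and 8.96) and 646 bp on X (chrX:94017236-94017881, 9.65 and 8.58). Each met an H3K4me3 peak of 1 library, with folds of 7.004 to 8.27. The widest H3K4me3 only regions were adjoining stretches of 17403 and 10909 bp inside Rybp (chr6:100245613-100263015 and chr6:100234287-100245195), a Polycomb subunit gene, and 9949 bp at Rbm4 (chr19:4782495-4792443), a splicing regulator gene. In the Rybp stretch of 17403 bp the H3K4me3 fold was 9.29 and 9.78. H3K27ac peaks there had folds of 4.53 and 4.05 and did not overlap between the libraries. The strongest H3K4me3 only regions by fold were short and at the edges of genes, at Gle1 (857 bp, folds 24.3 and 23.96), Zfp354a (756 bp, 23.5 and 23.0) and Apmap (795 bp, 23.9 and 21.0). All 3 also met an H3K27ac peak in 1 of the 2 libraries, with folds of 5.67 to 6.19.

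A gene was given a mark where a region of it lay within 1 kb of the gene's start, for the 17492 protein-coding genes with a start in the table. In KO2, 8408 genes (48.1%) had both marks, 2201 (12.6%) H3K4me3 only, 33 (0.189%) H3K27ac only and 6850 neither. Of the 10609 genes with H3K4me3, 79.3% also had H3K27ac. H3K27ac without H3K4me3 at a start was therefore rare among the 10642 marked genes (0.310%), at 62 and 85 genes without H3K27ac replicate 1 or 2 and at 14 without H3K4me3 replicate 2. Genes with H3K27ac only at the start had low coverage, with a median of 11.1% of the window from 2 kb before to 2 kb after the start (4001 bp), against 28.3% for H3K27ac at genes with both marks. H3K4me3 covered a median of 44.7% of that window at genes with both marks and 16.5% at genes with H3K4me3 only. A region with both marks elsewhere in the gene was found in 329 (14.9%) of the H3K4me3 only genes and in 425 (6.204%) of the genes with neither.

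Around the starts with both marks, the 2 marks had the same outline and H3K4me3 reached farther. Peaks were most frequent 200 bp into the gene, where 88.2% and 89.1% of genes had H3K27ac and 96.1% and 95.8% H3K4me3. Just before the start, at -50 bp, these shares dropped to 24.9% and 25.7% for H3K27ac and to 47.0% and 44.0% for H3K4me3. Upstream they rose again to 55.9% and 56.4% for H3K27ac at -350 bp and to 72.8% and 68.8% for H3K4me3 at -300 bp. At 1000 bp into the gene, 29.0% and 28.3% of genes still had H3K27ac and 63.0% and 57.6% H3K4me3. At H3K4me3 only genes, H3K4me3 was at 80.7% of genes at 200 bp in library 1 and 76.7% at 150 bp in library 2. Upstream it was at 31.3% and 26.2% of them at -300 bp and at 14.5% and 12.2% at -500 bp. Genes with both marks had H3K4me3 at 62.0% and 57.9% at -500 bp.

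**Figure D3:**
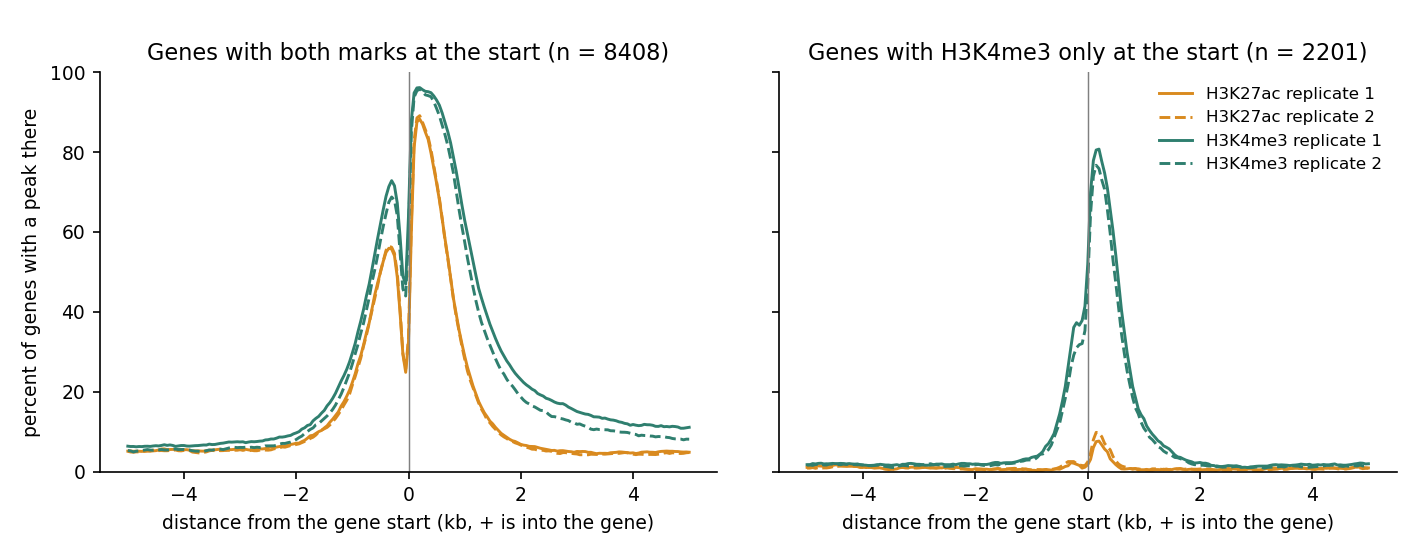
Percent of genes with a peak at each distance from the gene start (kb) in the 4 KO2 libraries, for genes with both marks (left) and with H3K4me3 only (right). On the left both marks dip just before the start and H3K4me3 extends farther into the gene; on the right H3K27ac stays below 10% in both libraries.

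At the targeted gene, Mettl3, both marks were present in KO2. H3K27ac covered 31.9% and 28.04% of its start window and H3K4me3 48.0% and 44.1%, a difference of -16.03 ± 3.46 percentage points (SE, limma adjusted p = 0.0010). The Control libraries had 18.7% and 22.2% H3K27ac and 65.4% and 64.2% H3K4me3 there. Marks at a start do not report whether a coding part was removed, so this does not check the genotype.

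Cover at gene starts was compared between the marks with limma on the percent of the start window under peaks, over 10216 genes. H3K4me3 covered more than H3K27ac at most of them: 7887 genes (77.2%) were lower for H3K27ac and 94 (0.92%) higher at an adjusted p of 0.05, and the median difference was -14.91 points. The libraries of the marks did not overlap at 8950 of the 10216 tested genes with H3K27ac lower and at 204 with it higher, among them 7869 of the 7887 and 93 of the 94. This comparison is between antibodies and lists of different length, and quantile normalization over the libraries, which removes the overall difference, left 1035 lower (10.1%) and 885 higher (8.66%) with a median of 0.36 points. The direction for any gene is thus relative to the scale, and differences named below are on the scale as computed. The 8 highest and 8 lowest genes kept their direction and their call after that normalization. Other named genes changed sign. Among them Mettl3, Gsc and Fgf5 had been called lower and did not pass the test there. Klf4, Sox2, Klf2, Irf2bpl, Mkrn1, Zc3h4 and Zfp148 also changed sign and passed on neither scale. Without H3K4me3 replicate 2 of KO2 the 94 higher genes became 54.

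Of the 8 genes with the largest excess of H3K27ac over H3K4me3 cover, 3 were histone genes (H3c6, H4c2 and H2ac4), a grouping made after their values were seen. The share of histone genes among all tested genes was not computed, so the count of 3 cannot be judged. At H3c6, a histone H3 gene, H3K27ac covered 60.04% and 56.7% and H3K4me3 31.9% and 25.04%, a difference of 29.91 ± 4.24 points (SE, limma adjusted p = 4.6e-05). H4c2 had 68.6% and 67.0% against 47.8% and 37.6%, and H2ac4 65.1% and 78.9% against 49.6% and 49.8%. The Control means also had H3K27ac above H3K4me3, at 39.2% against 29.2% for H3c6, 48.7% against 23.3% for H4c2 and 58.6% against 40.1% for H2ac4. In KO2 every H3K27ac library was above every H3K4me3 library at these 3 genes, as the rule for naming genes required. Histone genes stand close together, so their windows can hold a neighbour's peaks. Phyhd1, which encodes an oxygenase-family protein, had 65.2% and 66.2% against 46.1% and 37.3%. Pla2g10, a secreted phospholipase gene, had 77.8% and 49.9% against 41.9% and 30.8%, and the predicted gene Gm4869 40.4% and 38.6% against 26.4% and 8.25%. Ubd, which encodes a ubiquitin-like modifier, had 46.9% and 65.2% against 41.6% and 21.1%, and its difference turned to -4.41 points when all lists were held to the same number of peaks.

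The lowest H3K27ac relative to H3K4me3 was at genes with H3K4me3 over most of the start window. Gm36712 had no H3K27ac peak in either library and 96.1% and 72.5% H3K4me3 cover, and Luc7l2 none and 68.1% and 77.3% (-72.72 ± 4.04 points, SE, limma adjusted p = 2.0e-07). Rbm25, another splicing factor gene, had 16.3% and 10.9% H3K27ac against 89.7% and 80.2%. Smarca2, an ATPase subunit gene of SWI/SNF remodellers, had none against 63.0% and 58.8%. Polr2b, which encodes a large subunit of RNA polymerase II, had 31.5% and 24.1% against 98.4% and 83.1%. Zmiz1, a transcriptional coactivator gene, had 26.4% and 20.1% against 92.7% and 88.6%, Efna5, an ephrin gene, 9.498% and 10.1% against 77.2% and 69.5%, and Gm46933 22.2% and 21.1% against 95.1% and 87.8%. The libraries of the marks did not overlap at any of these 8 genes, again as the rule required. Each of the 8 had 1 start in the table, which may lack alternative starts, so the values hold for the start used.

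**Figure D4:**
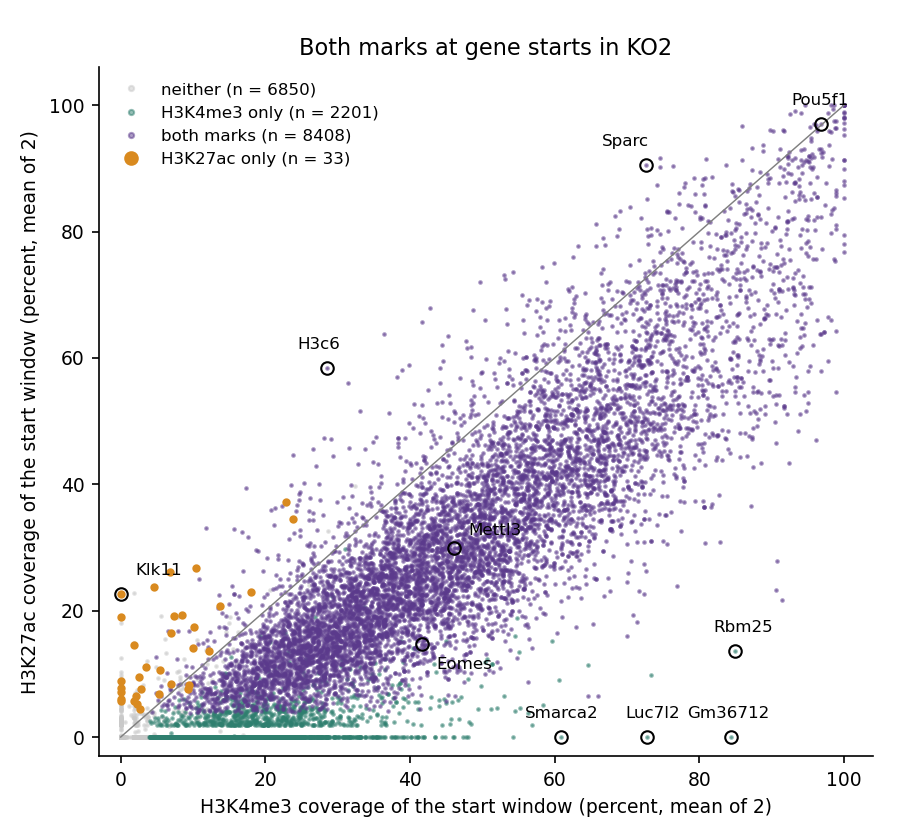
Each point is a gene: H3K4me3 cover of the start window (percent, mean of 2 KO2 libraries) against H3K27ac cover, coloured by the class at the start, with the diagonal of equal cover. Most genes with both marks lie below the diagonal, Luc7l2, Gm36712 and Smarca2 sit at no H3K27ac, and H3c6 and Sparc lie above the diagonal.

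Of the 33 genes with H3K27ac only at the start, 7 had no H3K4me3 peak in the window in either library. Klk11 was covered to 19.6% and 25.6% by H3K27ac and Wfikkn1 to 21.6% and 16.5%. Ghrh, a hypothalamic hormone gene, had 10.6% and 7.12%, Taar2, a trace amine receptor gene, 9.10% and 5.27%, Yjefn3 7.70% and 7.97%, Fgfbp1 4.92% and 7.22%, and Nlrp4a 4.27% and 7.10%. In Control 5 of the 7 genes had neither mark by the same rule (all but Klk11 and Yjefn3, which had H3K4me3 only). Some of the 5 still had Control peaks in the window. Fgfbp1 had H3K27ac over 0% and 14.5% and H3K4me3 over 8.15% and 7.50%, and Wfikkn1 H3K27ac over 5.80% and 0%. Of the 2201 H3K4me3 only genes, 1461 had no H3K27ac peak in the window. They include genes of neural and vascular signalling: Ngfr, the p75 neurotrophin receptor gene, had H3K4me3 over 45.6% and 50.3%, Nrp1, a semaphorin and VEGF coreceptor gene, 54.8% and 40.6%, and Mdga1, a synaptic adhesion gene, 49.99% and 44.8%. Kif26b, a kinesin family gene, had 59.1% and 49.5% and Sphk1, a sphingosine kinase gene, 48.5% and 43.6%. At the other end, Pcbp1, Phc1, Tgif1, Arih2, Ubtf and Sall1 were covered to 100% by both marks in all 4 libraries, and Zc3h4 and Zfp148 to at least 97.6%.

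The gene lists separated by the marks at their starts. Among all marked genes, 79.0% had both marks and 20.7% H3K4me3 only. Members are counted among those with a start, and over all such genes 48.1% had both marks, 12.6% H3K4me3 only and 39.2% neither. Of 26 naive pluripotency genes with a start, 25 had both marks. Nanog had 97.9% and 94.6% H3K27ac and 100% H3K4me3 cover in both libraries, Pou5f1 96.7% and 97.5% against 96.2% and 97.3%, Sox2 96.1% and 95.4% against 96.9% and 99.3%, and Klf4 90.2% and 93.1% against 91.9% and 94.4%. The mean cover of the marks differed by under 4 points at these factors, and the limma adjusted p was 0.43, 0.92, 0.52 and 0.72 in the same order. Cover saturates at 100%, so little difference could show there. Median cover in the list was 82.0% for H3K27ac and 84.6% for H3K4me3, against 28.3% and 44.7% at all genes with both marks. In the list, 9 of 26 were lower for H3K27ac, beside 77.2% of all tested genes and 6154 of the 8382 with both marks. The list's median was -4.46 points, against -14.91 and -14.32. After quantile normalization 1 was lower and 5 were higher, with a median of 3.23 points against 0.36 for all tested genes. The exception was Esrrb, with no H3K27ac and 26.7% and 27.8% H3K4me3 at the start used (chr12:86421644-86421644), the better covered of the 2 in the table. The 25374-bp region with both marks lies farther into the gene, so the class of Esrrb depends on which starts the table holds. Of 12 formative and primed genes, 9 had both marks, among them Otx2, Dnmt3b and Nodal. Fgf5 and Lef1 had H3K4me3 only.

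Genes of later lineages differed by list. Of 16 mesoderm and endoderm genes, 11 had H3K4me3 only, among them T, Mesp1, Kdr and Isl1, and 2 had both marks. Hand2, a heart and limb transcription factor gene, had 0% and 3.82% H3K27ac against 33.0% and 32.3% H3K4me3. Eomes, a T-box factor gene, had both marks (15.9% and 13.6% against 44.96% and 38.4%), as did Gsc, a homeobox gene (18.2% and 10.7% against 29.6% and 27.7%). Of 16 neuroectoderm genes, 9 had H3K4me3 only and 4 both. Sox1 had 0% and 8.92% H3K27ac against 53.2% and 49.2% H3K4me3, whereas Gli2, a Hedgehog effector gene, had 100% and 92.9% against 96.3% and 94.3%. Of 22 Hox genes, 11 had H3K4me3 only, 11 neither and none both, and at Hoxa5 H3K27ac was absent and H3K4me3 covered 23.9% and 23.4%. Of 11 trophectoderm genes, 4 had H3K4me3 only, 2 both and 5 neither, and of 8 primitive endoderm genes 2 had H3K4me3 only, 5 both and 1 neither. These 8 come from a list of 14. Gata6, Gata4 and Sox7 of that list had no start in the table and are not counted. The 10 tested genes each of the mesoderm and endoderm list and of the Hox list were all lower for H3K27ac, beside 77.2% of all tested genes. After quantile normalization 2 and 1 of them were. Mean H3K27ac cover in KO2 was at most 2.24% in the Hox list and 14.8% in the mesoderm and endoderm list. A gene with so little H3K27ac passes the 5% filter on mean cover mainly through H3K4me3. Its direction on the unnormalized scale is then set by the filter, so these counts add nothing about the lists.

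Most lists of general cell function had both marks at more than the 79.0% of all marked genes. All 41 ribosomal protein genes did, with median cover of 53.2% for H3K27ac and 70.2% for H3K4me3, as did all 22 genes of the m6A machinery. So did 21 of 23 glycolysis genes, 21 of 22 housekeeping genes and all 17 marked p53 targets (18 had a start). Of 18 genes of LIF, Wnt and FGF signalling 17 were marked and 15 had both marks. Among enzymes that write or remove the marks, 11 of 12 H3K4 methylation genes had both, and Kdm5d had neither. Wdr5, a shared subunit of the H3K4 methyltransferases, had H3K27ac as wide as H3K4me3 (74.6% and 69.3% against 73.6% and 66.8%), and Kmt2d, an H3K4 methyltransferase gene, had 44.6% and 40.5% against 82.5% and 76.1%. Of 18 acetylation genes 16 had both marks, and at Crebbp, which encodes CBP, the cover was 35.4% and 39.4% against 79.4% and 75.3%. Hdac7 and Hdac8, deacetylase genes, had H3K4me3 only. Of 18 Polycomb genes 16 had both marks, and Phf19 and Cbx8 had H3K4me3 only.

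Of all genes with a start, 39.2% had neither mark. None of 8 2-cell-like genes and 1 of 15 germline genes (Rpl10l, a retrogene copy of Rpl10, with which its reads may be shared) had a mark. Of 10 odorant and taste receptor genes the taste receptor gene Tas1r1 had both marks and 9 had neither. Imprinted genes split evenly, with 7 with both marks and 7 with H3K4me3 only of 15. Of 20 interferon and double-stranded RNA response genes 11 had both marks and 8 neither. Oas1a, an antiviral sensor gene, had 31.7% and 54.7% H3K27ac against 32.6% and 32.9% H3K4me3. Markers bore on the labelled cell type: 8 of 9 embryonic stem cell markers with a start had both marks, the ninth being Esrrb, classed by the start used. Of 8 fibroblast markers, the 4 with a start (Col1a2, Col3a1, Postn and Prrx1) had neither mark. The wider fibroblast list also held Vim and Ccn1 with both marks and Twist1 and Twist2 with H3K4me3 only. Among 4 trophectoderm markers, Eomes had both marks, Gata3 H3K4me3 only and Cdx2 and Elf5 neither. Among 4 neuroectoderm markers, Nes had both marks (mean H3K27ac cover 18.9%), Sox1 and Neurog1 H3K4me3 only and Pax6 neither. Only Pdgfra of 5 primitive endoderm markers had a start. Among primitive endoderm genes, Sparc had more H3K27ac (88.2% and 92.9%) than H3K4me3 (76.3% and 68.8%), a difference of 18.01 ± 5.16 points (SE, limma adjusted p = 0.0064). Lamb1, Col4a1, Col4a2 and Apoe also had both marks, Pdgfra and Dab2 H3K4me3 only and Hnf4a neither.

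**Figure D5:**
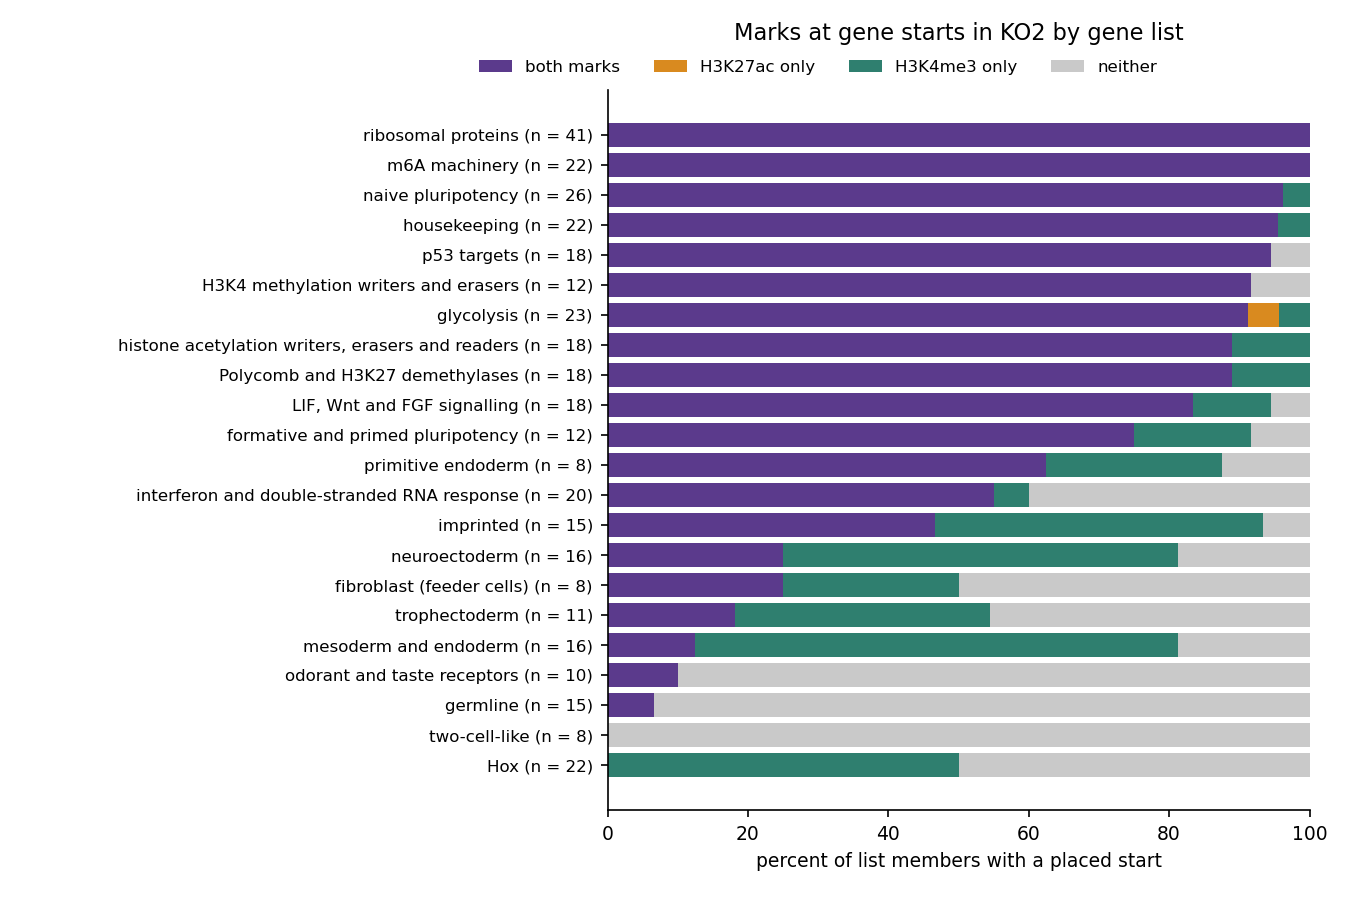
Percent of each list's genes with a placed start that had both marks, H3K27ac only, H3K4me3 only or neither in KO2. Ribosomal protein and m6A genes are all in the class with both marks, and Hox genes and mesoderm and endoderm genes are mostly H3K4me3 only or unmarked.

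Away from gene starts, 8029 H3K27ac only regions (84.8%) lay over 2.5 kb from any coding gene's start or end, against 49.5% of regions with both marks and 56.7% of H3K4me3 only regions. Such distal H3K27ac only regions were found within 50 kb of the start of 39.5% of genes with both marks, 18.5% of H3K4me3 only genes and 14.3% of genes with neither. Distal regions with both marks were found near 50.4%, 26.5% and 18.98% of the same 3 gene classes. The gradient is thus not particular to H3K27ac only regions. Neighbouring genes share the distal H3K27ac only regions. The greatest length stood near Actr2, an actin-nucleating Arp2/3 subunit gene (6278 bp in 12 regions), followed by Mkrn1, a ubiquitin ligase gene (5890 bp in 10), Irf2bpl (5656 bp in 9), Klf2, a naive pluripotency factor gene (5644 bp in 12), Iqgap1, a scaffold protein gene (5161 bp in 8), and Cep89 (4996 bp in 10). All 6 had both marks at the start. At Klf2 they were equally wide (90.6% and 91.95% against 92.9% and 92.6%), and at Iqgap1 H3K27ac was narrower (26.0% and 27.1% against 58.0% and 45.6%).

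The relation of the marks in KO2 was set against that in Control and KO1. In KO2 60.7% and 63.4% of H3K4me3 peaks met an H3K27ac peak of the same replicate number, against 26.2% and 27.9% in Control and 40.7% and 38.6% in KO1. KO2 did not overlap with the other genotypes, and the difference was 28.73 points (exact permutation test, 2-sided, p = 0.0667 over 15 assignments, the smallest p this design allows; 2 shares were tested). Of H3K27ac peaks, 73.8% and 70% met H3K4me3 in KO2, against 87.2% and 83.5% in Control and 80.1% and 79.8% in KO1 (-10.70 points, exact permutation p = 0.0667). List length moved with these shares. KO2 had 65398 and 61383 H3K27ac peaks, against 29973 and 32957 in Control and 40210 and 39048 in KO1. With the strongest 29966 peaks of each of the 12 lists, the first difference was 17.02 points, and the second turned to 8.68 points, with KO2 the highest.

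The regions that carried both marks in KO2 were mostly H3K4me3 regions of Control as well: 82.5% met one, and 50.7% met a Control H3K27ac region. H3K4me3 only regions of KO2 met Control H3K4me3 in 78.5% and Control H3K27ac in 0.840%. H3K27ac only regions met Control regions less, with 12.6% for H3K27ac and 19.3% for H3K4me3. Of the 8408 genes with both marks in KO2, 5390 (64.1%) had both in Control and 2955 (35.1%) H3K4me3 only. Of the 2201 H3K4me3 only genes, 1935 (87.9%) were so in Control, 260 had neither mark and 6 had both. Among genes with H3K4me3, H3K27ac was at 51.5% in Control, 62.3% in KO1 and 79.3% in KO2. Longer H3K27ac lists by themselves put more genes in the class with both marks, and these shares were not tested.

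Tested as an interaction, the H3K27ac minus H3K4me3 difference was higher in KO2 than in Control at 6938 genes (67.9%) and lower at 84 (0.822%), with a median of 18.27 points. Against KO1 it was higher at 4505 (44.1%) and lower at 97 (0.949%), with a median of 12.60 points. After quantile normalization 251 genes (2.46%) were higher and 412 (4.03%) lower against Control, and 36 (0.352%) higher and 35 (0.343%) lower against KO1. That normalization removes any overall shift between libraries. With the same number of peaks in all 12 lists, 4625 genes (48.1%) were higher and 99 (1.03%) lower against Control. Against KO1 they were then 2355 (24.5%) and 67 (0.697%). Without H3K4me3 replicate 2 of KO2, 127 genes were lower against Control and 2763 higher against KO1. Without H3K27ac replicate 1 of KO2, 54 were lower against Control and 59 against KO1, and without replicate 2, 57 against KO1. By class, 6741 of the 8382 tested genes with both marks were higher against Control, and 145 of the 1710 tested H3K4me3 only genes were. The KO2 H3K27ac lists both define these classes and enter the difference. The gap between these counts was therefore built in and is no result.

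The 5 genes with the largest positive differences against Control passed the threshold after that normalization too. At Nfyc, a subunit gene of the CCAAT-binding factor NF-Y, H3K27ac covered 96.2% and 84.3% in KO2, 0% and 18.05% in Control and 22.6% and 27.3% in KO1, while H3K4me3 was at 80.1% or more in all 6 libraries. The interaction was 86.82 ± 8.32 points against Control (SE, limma adjusted p = 2.9e-05; 62.25 points and 0.015 after quantile normalization). Pcolce, a collagen-processing gene, had H3K27ac at 65.0% and 61.9% in KO2 and 4.55% and 5.70% in Control, while H3K4me3 was at 48.1% and 42.5% in KO2 and 68.2% and 70.8% in Control. Mllt11 and Cdc42se1, neighbours that share a start region on chromosome 3, had H3K27ac at 94.7% and 90.9% and at 94.7% and 89.2% in KO2, against 18.9% and 19.9% and 20.8% and 24.8% in Control. At Cds2 and Tnfsf13 H3K27ac was wider and H3K4me3 narrower in KO2: Cds2 had 47.8% and 41.6% H3K27ac and 33.3% and 14.3% H3K4me3, against 13.1% and 14.7% and 76.8% and 75.9% in Control. Of genes named above, Klf4 had H3K27ac at 42.9% and 40.6% in Control and 90.2% and 93.1% in KO2 with like H3K4me3 (47.46 ± 5.33 points, SE, limma adjusted p = 6.1e-05; 0.42 after quantile normalization). Vim, an intermediate filament gene, had no H3K27ac in Control and 46.0% and 42.3% in KO2 (44.34 ± 6.89 points, SE, limma adjusted p = 0.00028; 0.026 after quantile normalization).

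Of the 5 genes with the most negative differences against Control, 4 had wider H3K4me3 in KO2 and no H3K27ac peak in any library. Kif26a, a kinesin family gene, had H3K4me3 at 45.5% and 38.3% in KO2, 18.8% and 22.4% in Control and 9.25% and 18.9% in KO1, and no H3K27ac peak in any of the 6 H3K27ac libraries (-21.33 ± 4.49 points against Control, SE, limma adjusted p = 0.0014). Crabp1, a retinoic acid binding protein gene, had 35.3% and 36.2% in KO2 and 17.1% and 11.8% in Control. Kif1a, a neuronal kinesin gene, had 29.3% and 23.4% in KO2, 10.6% and 0% in Control and none in KO1. Esx1, a placental homeobox gene, had 40.4% and 25.9% in KO2, 9.498% and 11.7% in Control and 33.2% and 29.1% in KO1. The fifth, Eif2s3y, a translation factor gene on Y, had H3K4me3 at 31.4% and 35.7% in KO2 and 15.4% and 0% in Control, and H3K27ac at 4.67% and 8.47% in KO2 and none in Control. The values for Kif26a, Crabp1, Kif1a and Esx1 against Control stayed past the threshold after quantile normalization, and that for Eif2s3y did not (limma adjusted p = 0.087).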

How the data were processed

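H3K27ac and H3K4me3 were measured in 12 libraries of 3 genotypes, each with a deposited peak list. CASAVA, Trimmomatic 0.38, Bowtie 1.2.2, MACS2 (no version) and build mm10 are named in the submitters' processing notes. The sources used here do not say whether inputs or the spike-in entered peak calling. Each library has a list of its own, and the deposited lists of the authors give each peak's fold enrichment (a ratio) and −log10 p and q, all with q under 0.01. The fold of a region in a library is the authors' highest value among that library's peaks that meet the region.

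Computed here (Python 3.11.15, R 4.3.3, limma 3.58.1): shared and joined regions (1 bp overlap), classes of genes (region within 1 kb of a RefSeq start), and the percent of the 4001-bp start window covered by peaks. Where a gene had several starts (2761 genes), the one with the most cover of both marks over all 12 lists was used. limma (lmFit, eBayes with a trend) ran over 12 libraries in 6 groups for 10216 genes with a mean cover of at least 5%, at a Benjamini-Hochberg adjusted p of 0.05. Genes were named by rule: the 8 highest and lowest of the KO2 contrast with libraries not overlapping, the 5 of each interaction, the 8 of each class, list extremes and exceptions, the 3 widest and strongest regions, 6 by distal regions, and Mettl3, Nanog, Pou5f1, Sox2, Klf4, Esrrb and Gapdh (Mettl14 and Actb, without a start entry, were not analysed here). Scripts were tested on simulated data. Members, lists and rules were chosen with earlier results of these data known. Alternatives were thresholds, overlap, list length, windows, normalization and leaving out libraries. The result of 1 region chosen by these rules is not reported here.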

Additional observations from a re-analysis of the deposited data

Results flagged for a closer look

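The difference between the marks at gene starts (H3K27ac minus H3K4me3 cover, in percentage points) differed between genotypes by limma's interaction test at 6938 genes that were higher and 84 that were lower in KO2 than in Control, and at 4505 higher and 97 lower in KO2 than in KO1. Against Control the largest positive differences were 86.82 at Nfyc, 86.17 at Tnfsf13, 83.33 at Cds2, 82.57 at Pcolce and 81.38 at Mllt11. The most negative were -22.54 at Esx1, -21.33 at Kif26a, -21.26 at Crabp1, -21.06 at Kif1a and -19.30 at Eif2s3y. After quantile normalization these 10 passed the threshold except Eif2s3y (limma adjusted p = 0.087), which had H3K4me3 at 50.3% and 54.8% in KO1. Against KO1 they were 75.42 at Aim2, 68.38 at Mllt11, 66.33 at Gm38457, 65.77 at Cdc42se1 and 63.97 at Tnfsf13, and -27.83 at Kif26a, -26.57 at Gfra1, -26.56 at Mdga1, -26.36 at Kif1a and -25.12 at Nrp1. After quantile normalization Gm38457 (limma adjusted p = 0.126) and Tnfsf13 (0.169) did not pass, and the other 8 did. At Aim2, a DNA sensor gene, H3K4me3 cover was 22.3% and 5.05% in KO2 against 85.3% and 82.6% in KO1, while H3K27ac was 25.04% and 16.5% against 21.0% and 10.2%. The H3K27ac lists held 65398 and 61383 peaks in KO2, 29973 and 32957 in Control and 40210 and 39048 in KO1, and the part of list length in single genes was not tested.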

How the results depend on the processing

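With quantile normalization, genes higher and lower became 885 and 1035 for H3K27ac against H3K4me3 in KO2 (median 0.36 points), 251 and 412 against Control (median -1.17) and 36 and 35 against KO1 (median -0.86). Differences in KO2 turned to 6.33 at Gapdh, 6.93 at Klf4, 0.70 at Mettl3 and 3.45 at Sox2. With equal peak numbers in the 12 lists, 4625 genes were higher against Control and 2355 against KO1, Gapdh turned to 1.14, Ubd to -4.41, and the KO2 difference in H3K27ac peaks meeting H3K4me3 to 8.68 points. Without the filter on low cover, 163 and 180 genes were lower against Control and KO1. H3K27ac only regions were 6139 at a −log10 q of at least 5 and 4256 when no peak of the other mark was allowed. Cut to the smallest Control list, an alternative chosen after seeing the data, KO2 had 16387 regions with both marks, 4545 with H3K27ac only and 6944 with H3K4me3 only. Within 2.5 kb of the start, 50 genes had H3K27ac only. The cause was not tested.

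Leaving out 1 KO2 library gave 54 to 117 genes higher in KO2, 5791 to 6968 higher and 54 to 127 lower against Control, and 2763 to 4633 higher and 57 to 115 lower against KO1. It gave 5602 to 23430 H3K27ac only regions, 12045 to 32770 H3K4me3 only regions and 14 to 85 genes with H3K27ac only. A mark then rests on a single list. Pou5f1 turned to -0.11 without H3K27ac replicate 2 and -0.21 without H3K4me3 replicate 1, the lowest of a range up to 0.86. Genes lower in KO2 were 6254 to 7529, regions with both marks 31892 to 33512, genes with both marks 8407 to 8818 and genes with H3K4me3 only 1791 to 2478.

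Libraries with the same replicate number deviated together weakly (correlations of 0.032, 0.064 and 0.095 in Control, KO1 and KO2), so the numbers were not taken as pairs. A replicate block gave 120 higher and 7983 lower genes in KO2, 6967 and 79 against Control and 4627 and 88 against KO1.

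Read depth is unknown, so an absent peak does not show that a mark is absent. Peak cover measures width and not signal, and saturates at 100%.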
